A study of Homo sapiens with 4 samples.

Results

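The E-boxes recovered with the circadian activator BMAL1-CLOCK were compared with the GRE half-sites (sites for the glucocorticoid receptor, GR) of a control library made with non-specific IgG. The members were all distinct sites of the BMAL1-CLOCK anti-Flag table, 4353 cytosines, and all sites of the tables of the GR IgG control, 2715 cytosines, so 7068 of the 15177 distinct sites of the series were used. The GR IgG library stands in for a background because the IgG control of BMAL1-CLOCK itself lists only 2 sites. The assay was BisChIP-seq, in which immunoprecipitated chromatin is treated with bisulfite before sequencing, so that each read of a cytosine counts as methylated or as converted. HEK-293T is an established human embryonic kidney line. The BMAL1-CLOCK cells were transfected with BMAL1-pCMV14, CLOCK-pCMV14 and DNMT3A-pLX304, received no dexamethasone, and their chromatin was precipitated with an anti-Flag antibody. The GR IgG cells were transfected with GR-pCMV14 and DNMT3A-pLX304, received 4 nM dexamethasone, a GR ligand, and were collected 24 h later. Both groups therefore carried the DNA methyltransferase DNMT3A and over-expressed the factor from a vector, and each was 1 library of 2 merged sequencing runs. No value has a replicate error. Every test below takes sites or reads as its units and so compares these libraries. In them factor, antibody, motif, dexamethasone, bisulfite conversion and library cannot be told apart. A cytosine left unconverted counts as methylated, and no conversion rate was measured here for either library.

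BMAL1 and CLOCK form a dimer of basic helix-loop-helix proteins that binds the E-box and drives the transcription of clock genes such as the period and cryptochrome genes, whose products repress the dimer in turn. GR is a zinc-finger nuclear receptor that moves to the nucleus when it binds a glucocorticoid. DNMT3A is a de novo methyltransferase that acts on CpG and, less efficiently, on other cytosines, of which CpA is the most favoured, and methylation outside CpG is low in most somatic cells.

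The measured cytosines are shown in capitals in the elements below, 5′ to 3′, since the context of the cytosine differs between the tables.
E-box: Cacgtg
GRE half-site: agaaCa
other strand of the GRE half-site: tgttCt
The E-box cytosine stands before an adenine (CpA), as does the one in the first form of the half-site. The cytosine in the other form stands before a thymine (CpT). The E-box is a palindrome, so its outer cytosine can be read on either strand. Counts of E-boxes and half-sites below are counts of cytosines, except where elements read on both strands are named. An element read on both strands thus counts once for each strand. Below, the forms of the half-site are called the CpA and the CpT half-site.

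Of the 4353 E-box cytosines 242 (5.56%, exact 95% interval 4.90 to 6.28) had any methylated read, and of the 2715 IgG half-sites 749 (27.6%) had one. Pooled over reads, the methylation level was 1.23% at the E-boxes, 259 of 21042 reads (interval 1.09 to 1.39), and 7.13% at the IgG half-sites, 1009 of 14143 reads (6.72 to 7.57). The CpA half-sites stood at 7.57% (767 of 10129 reads over 2100 sites) and the CpT half-sites at 6.03% (242 of 4014 reads over 615 sites). The background library was thus higher than the E-box library at both forms of the half-site. Only the CpA form shares its context with the E-box, which has no CpT value. The intervals cover counting error only, since reads without molecular identifiers need not be independent molecules. The mean level over sites was 1.23% ± 5.51 (SD, n = 4353 sites) for the E-boxes and 7.05% ± 12.9 (SD, n = 2715 sites) for the half-sites, spreads that reflect sites of few reads.

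Depth was low on both sides, with a median of 4 reads per site, the minimum that the authors kept. Exactly 4 reads covered 2424 E-boxes (55.7%) and 2087 half-sites (76.9%), 21.2 points fewer for the E-boxes (p = 6.97e-75 by a two-sided Fisher's exact test). The deepest E-box had 21 reads and the deepest half-sites had 379 and 477, both at NR3C1, the GR gene itself. Because a site with more reads has more chances of a methylated one, the shares were compared at equal reads. A site with some methylated reads but a level under 50% is called low-level here, and a site at 50% or above highly methylated.

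The low-level share was 5.44% at the E-boxes (237 of 4353) and 25.4% at the IgG half-sites (690 of 2715), which is 19.97 points lower. Over 7 strata of equal reads the common odds ratio was 0.146 (exact 95% interval 0.123 to 0.173), with p = 1.18e-132 by the exact conditional test and 1.12e-131 after Benjamini-Hochberg adjustment over the 38 tests of the study's comparisons and those added later, of which 28 passed 0.05. Against the CpA half-sites alone, 27.5% of which were low-level, the odds ratio was 0.132 (0.110 to 0.157). Against the CpT half-sites alone, of which 18.4% were low-level, it was 0.243 (0.186 to 0.319). The contexts also differed within the IgG library: at equal reads the CpA half-sites had 1.80 times the odds of the CpT half-sites (1.41 to 2.30, exact conditional test, adjusted p = 8.35e-07, a test added later).

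The share rose from 4 to 7 reads on both sides, and the E-boxes were lower than all half-sites together in every stratum. At exactly 4 reads it was 4.50% (109 of 2424) against 21.8% (454 of 2087), at 5 reads 5.69% against 32.2%, and at 6 reads 5.99% against 39.8%. At 7 reads it was 8.55% (20 of 234) against 44.7%. At 8 to 9 reads it was lower on both sides, 7.35% (10 of 136) against 33.3% (5 of 15), and there the CpA half-sites stood at 10% (1 of 10). At 10 to 19 reads it was 21.2% (11 of 52) against 60.9% (14 of 23). Beyond that the comparison stops, since 1 E-box and 23 half-sites had 20 or more reads. That E-box, near SPDYE2, had 0 methylated reads of 21, which allows a level of up to 14.3%, and 21 of the 23 half-sites were low-level.

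**Figure D1:**
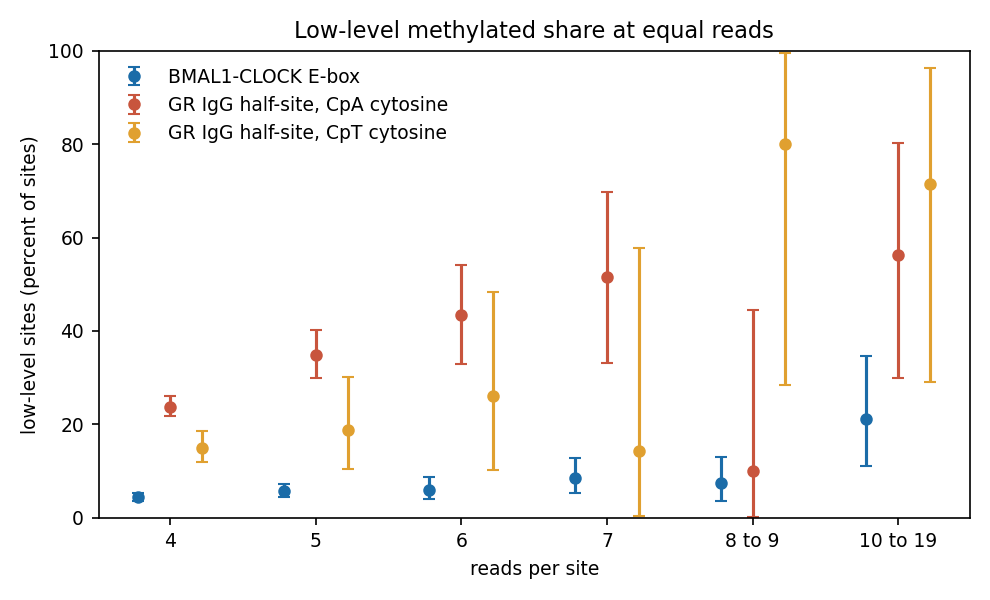
Share of low-level sites (percent of sites, y axis) by the reads per site (x axis) for the BMAL1-CLOCK E-boxes and the CpA and CpT half-sites of the GR IgG library, points with exact 95% binomial intervals. The E-boxes lie at 4.50% at 4 reads and 8.55% at 7 reads, under the CpA half-sites at 23.8% and 51.6%; the strata of 8 to 9 reads hold only 10 CpA and 5 CpT half-sites.

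At exactly 4 reads the counts of methylated reads can be set side by side without any correction. Among the 2424 E-boxes 2310 had 0 methylated reads, 109 had 1, 3 had 2, none had 3 and 2 had 4. A single level of 1.27% at all of these sites would give by the binomial 2303, 118, 2.28, 0.0195 and 6.28e-05 sites. Among the 1595 CpA half-sites 1175 had 0, 380 had 1, 33 had 2, 7 had 3 and none had 4, where a single level of 7.32% would give 1177, 372, 44.0, 2.32 and 0.0458. Among the 492 CpT half-sites the counts were 406, 74, 10, 1 and 1, where a level of 5.13% would give 399, 86.2, 6.998, 0.252 and 0.00341. The counts of sites with 0 or 1 methylated read lay near those of a single level on both sides. Higher up they lay above it for the E-boxes with 2 and 4, the CpA half-sites with 3 and the CpT half-sites with 2, 3 and 4. They lay below it for the CpA half-sites with 2, at 33 against 44.0. No site was seen where 0.0195 E-boxes with 3 and 0.0458 CpA half-sites with 4 would be given. This is a description with no test.

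**Figure D2:**
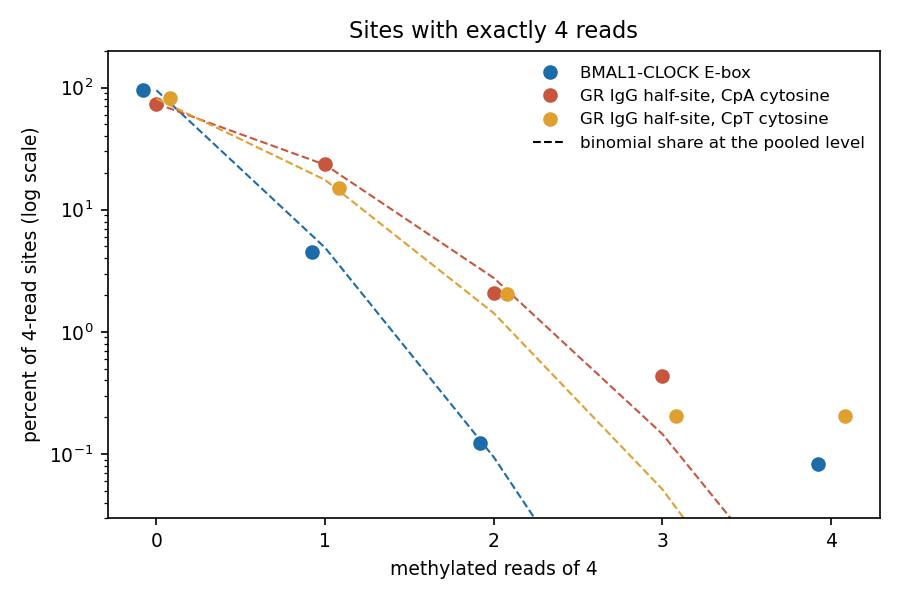
Percent of the sites with exactly 4 reads (y axis, log scale) by their number of methylated reads (x axis), as points for the E-boxes and the CpA and CpT half-sites, with dashed lines for a binomial at the pooled level of each set. At 1 methylated read the E-boxes lie at 4.50%, the CpA half-sites at 23.8% and the CpT half-sites at 15.0%; counts of 0 sites cannot be drawn on this axis.

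Highly methylated sites were rare in both libraries and rarer at the E-boxes, 5 of 4353 (0.115%) against 59 of 2715 (2.17%), with a common odds ratio of 0.0644 at equal reads (0.0200 to 0.160, exact conditional test, adjusted p = 1.25e-15). All 5 E-boxes had the minimum of 4 reads. The sites near LOC151760 (chr3:111958749, hg18, 136264 bp from the TSS) and TPRG1 (chr3:190553409, 180953 bp) had 4 of 4 reads methylated. Those near DIRC1 (chr2:189305562, 2330 bp), BC041448 (chr4:131349048, 428434 bp) and FBXO33 (chr14:39582894, 611523 bp) had 2 of 4. Thus 1 of the 5 lay within 5 kb of a transcription start site.

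In the IgG library the 3 highly methylated half-sites with the most reads were methylated in every read. A pair of CpA half-sites at SNORD17, a small nucleolar RNA, had 12 of 12 and 10 of 10 reads methylated, 121 and 70 bp from the TSS. A CpT half-site 44 bp from the TSS of WDR74 had 32 of 32. The next in reads had 3 of 6, near BX648957 and near TNIP2. No E-box reached such a level with more than 4 reads.

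Each E-box was also set against the pooled IgG level of 7.13% by a one-sided exact binomial test over its reads. Of 4353 E-boxes 0 (0%) passed an adjusted p under 0.05 and 8 (0.184%) an unadjusted one. The lowest adjusted p was 0.0564, for the sites near LOC151760 and TPRG1, and these passed when the background was the CpT half-sites alone or the IgG half-sites outside repeats, in each case as the 2 sites called. Both had 4 of 4 reads methylated, the most that a site of 4 reads can show. The count of 0 therefore does not show that no E-box exceeded the IgG level. The E-boxes with 2 of 4 reads had an adjusted p of 1, at DIRC1 as at FBXO33.

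The interval of each of the 10 deepest E-boxes included the IgG level of 7.13%. After SPDYE2 came BC071797 (chr1:141741886) with 1 of 19 reads methylated, FAM89A and AK057471 with 0 of 14 each, and SCYL3 and NOBOX, an oocyte homeobox gene, with 0 of 13 each. The other 4 of the 10 deepest lay near DQ583756 on chromosome 7, where the counts were 3 of 14, 0 of 13, 0 of 13 and 1 of 13. Among the low-level sites with the most reads, 6 of 10 lay there too, and the others were BC071797, BC070396 with 1 of 11, and NTS, the neurotensin gene, and ZNF92 with 1 of 10 each.

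The sites near DQ583756 form a regular run. There were 33 E-boxes between positions 157632393 and 157634407 of chromosome 7 (hg18), a span of 2014 bp, all on the minus strand and 77433 to 79447 bp from the TSS. All 32 spacings were whole multiples of 38 bp, and 24 were exactly 38 bp. Reads of these sites were methylated at 5.58% (15 of 269, interval 3.15 to 9.03), against 1.17% over the other 4320 E-boxes, and 11 of the 33 had a methylated read (33.3%), against 5.35% of the others. This run was singled out after its values were seen and gets no test. Without it the low-level share at 10 to 19 reads was 11.6% (5 of 43) in place of 21.2%.

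How the sites lay about the nearest TSS depended on which sites were counted. Of the E-boxes 332 (7.63%) lay within 5 kb, and of the half-sites 189 (6.96%), a difference of 0.666 points with an odds ratio of 1.10 (0.914 to 1.34, Fisher's exact test, p = 0.304). Within 1 kb the order was the other way, 44 E-boxes (1.01%) and 41 half-sites (1.51%), with an odds ratio of 0.666 (0.424 to 1.05, p = 0.0722, exact, a test added later). Beyond 100 kb lay 38.7% of the E-boxes and 41.3% of the half-sites (p = 0.0297, exact, adjusted p = 0.0403). This last difference missed 0.05 against either form of the half-site alone (p = 0.0686 and 0.103, exact) and without the run near DQ583756 (p = 0.0541). The difference within 5 kb turned among sites of 8 or more reads, where 4.23% of E-boxes and 36.1% of half-sites lay within it (p = 1.56e-09, exact). The IgG library held 16 mitochondrial half-sites, with a median of 45 reads and 427.5 bp from a TSS, and the E-box library none. Their part in this turn was not tested. Without mitochondrial, random and unplaced sequence, at any depth, 7.62% of E-boxes and 6.42% of half-sites lay within 5 kb (p = 0.0623, exact). The difference also turned against the half-sites outside repeats, of which 9.88% lay within 5 kb (p = 0.0228, exact, a setting added later).

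**Figure D3:**
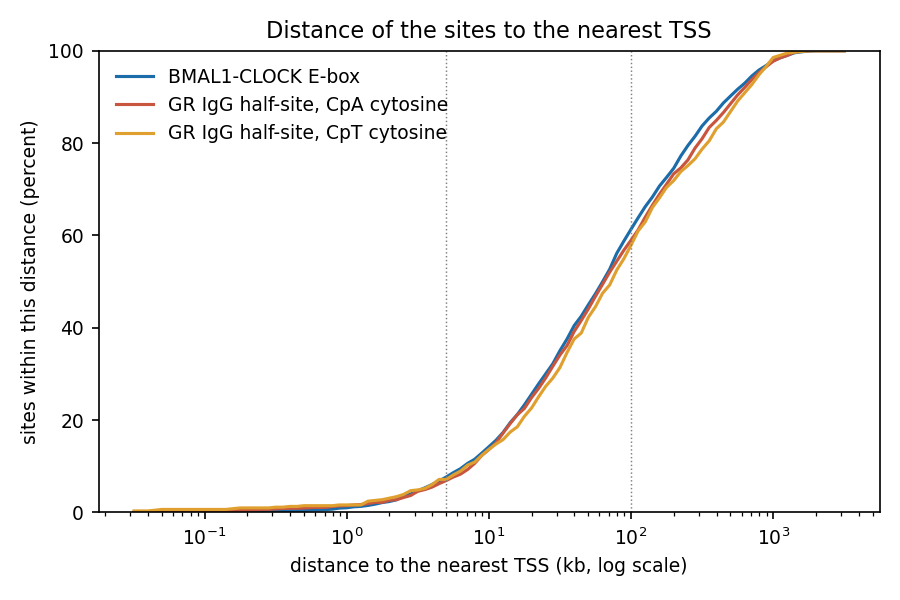
Percent of sites within a given distance of the nearest TSS (y axis) by that distance (x axis, kb, log scale) for the E-boxes and the CpA and CpT half-sites, with dotted lines at 5 and 100 kb. At 5 kb the curves lie close together, with 7.63% of E-boxes and 6.96% of all half-sites within 5 kb.

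With reads and distance both held equal, over 26 strata, the odds ratio for a low-level site was 0.145 (0.122 to 0.172, exact conditional test, adjusted p = 4.93e-131, added later). Within 5 kb the low-level share was 6.93% of E-boxes (23 of 332) and 28.6% of half-sites (54 of 189), with an odds ratio of 0.252 (0.133 to 0.467, adjusted p = 4.08e-06, exact). Without mitochondrial, random and unplaced sequence the half-site share was 22.9% and the ratio 0.253. Beyond 5 kb it was 5.32% and 25.2%, with an odds ratio of 0.139 (0.116 to 0.166). Whether the gap differed with distance was not tested. The stratified ratio within 5 kb turned to 1.29 among sites of at least 8 reads (p = 1, exact), although the shares were 25% of E-boxes and 77.3% of half-sites. Only 189 E-boxes and 61 half-sites had 8 or more reads at any distance, and 4.23% and 36.1% of these lay within 5 kb. This turn thus rests on few sites. Within 5 kb and against the CpT half-sites alone the stratified ratio turned to 1.81 (0.343 to 20.5, p = 0.724, exact), although the shares were 6.93% and 20.5% (9 of 44), and only 3 strata held both. Within the E-box library, sites within 5 kb had 1.39 times the odds of those beyond (0.850 to 2.19, p = 0.155, exact), an interval that spans 1.

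At exactly 4 reads the low-level share of the E-boxes was 0 of 23 within 1 kb, which allows up to 13.04%, then 6.74% from 1 to 5 kb, 4.35% from 5 to 20 kb, 4.72% from 20 to 100 kb and 4.03% beyond. That of the half-sites was 26.1%, 20%, 21.7%, 22.8% and 21.0% in the same order. Within each library the counting intervals of all 5 distances overlapped.

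**Figure D4:**
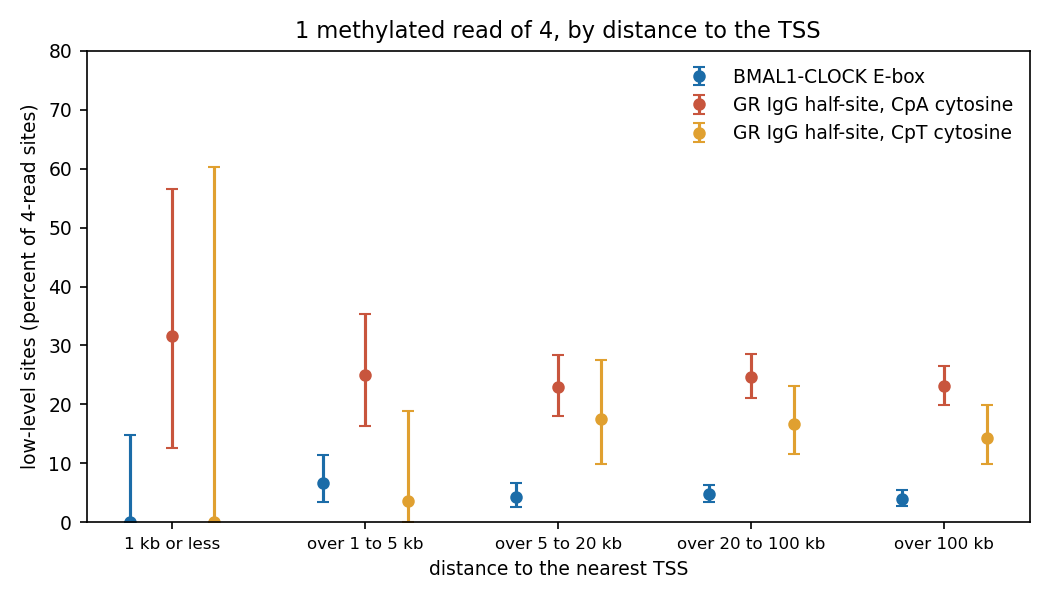
Share of low-level sites, here 1 methylated read of 4 (percent of the sites with exactly 4 reads, y axis), by distance to the nearest TSS (x axis), for the E-boxes and the CpA and CpT half-sites, with exact 95% binomial intervals. The E-boxes range from 0% to 6.74% and the CpA half-sites from 22.9% to 31.6%; only 4 CpT half-sites lie within 1 kb and 27 from 1 to 5 kb.

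Most E-boxes had no methylated read, 94.4% of all 4353, and this held near a TSS too. Within 1 kb 2.27% had one, with an exact 95% interval that includes the 5.56% of all E-boxes. From 1 to 5 kb 7.99% had one (23 of 288). The 1 of the 44 within 1 kb had 1 of 6 reads methylated. It lay 115 bp from the TSS of CDKAL1 (chr6:21173142), which encodes a tRNA-modifying enzyme. The other 9 of the 10 nearest had 0 methylated reads of 4 to 7. They lay at 23 bp from LOC392979, 37 bp from C9orf5, 55 bp from ADH1B, an alcohol dehydrogenase, and 56 bp from PLCZ1, a sperm phospholipase. Farther out followed NEUROD6, a neuronal helix-loop-helix factor, at 117 bp, CPNE2 at 122 bp, TESK2, a protein kinase, at 126 bp, AB231742 at 158 bp and TMEM91 at 190 bp. With 4 reads a count of 0 allows a level of up to 75%, so single sites of this kind carry little weight. Of the IgG half-sites within 1 kb 17 of 41 (41.5%) were low-level, and 6 of 23 (26.1%) of those with exactly 4 reads. Mitochondrial half-sites, which had a median of 45 reads and lay a median of 427.5 bp from a TSS, are among the 41. The E-box library held no mitochondrial site.

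After CDKAL1 the low-level E-boxes nearest a TSS were PAGE2B at 1048 bp (1 of 5 reads), TMEM192 at 1170 bp (1 of 4), DKFZp434G1730 at 2222 bp (1 of 4) and PAQR9 at 2389 bp (1 of 4). AMICA1 followed at 2474 bp with 1 of 5, and ARL14 at 2511 bp, ACTRT1 at 2556 bp, CCNH, the cyclin of the CDK-activating kinase, at 2585 bp, and GPD2, a mitochondrial glycerol-3-phosphate dehydrogenase, at 2830 bp with 1 of 4 each. Each of these sites rests on a single methylated read.

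Of 12 E-boxes within 250 bp of a TSS, 9 had a gene with a promoter in the RefSeq table used here (GRCh38.p14, 250 bases before the start to 50 after it), and 2 of these promoters hold the letters CACGTG. Both are shown because an E-box cytosine was read near their start site, with the E-box in capitals and 5′ to 3′ on the minus strand that carries the gene.
TESK2 promoter: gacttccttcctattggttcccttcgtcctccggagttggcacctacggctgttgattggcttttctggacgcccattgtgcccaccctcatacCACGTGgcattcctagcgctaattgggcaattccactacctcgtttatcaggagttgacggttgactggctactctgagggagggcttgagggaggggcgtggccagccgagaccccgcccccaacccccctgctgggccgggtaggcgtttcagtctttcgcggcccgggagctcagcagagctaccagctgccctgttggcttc
ADH1B promoter: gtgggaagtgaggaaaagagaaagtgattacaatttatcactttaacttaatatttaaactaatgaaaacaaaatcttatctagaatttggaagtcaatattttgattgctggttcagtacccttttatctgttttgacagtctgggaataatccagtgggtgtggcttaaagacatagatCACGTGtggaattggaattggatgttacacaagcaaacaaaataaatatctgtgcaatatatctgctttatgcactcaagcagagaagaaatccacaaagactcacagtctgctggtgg
The first is chr1:45491114-45491413, where the E-box starts 156 bases before the start site, and the second chr4:99321352-99321651, where it starts 69 before. The files put their E-box cytosines at 126 and 55 bp (hg18), with 0 of 4 reads methylated at each, so the builds and start sites differ and it is not established that these are the same E-boxes. The letters CACGTG, which read the same on both strands, occur in 7.26% of the 35116 promoters of the table.

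Many sites of the libraries share a nearest gene. The E-boxes had 2922 nearest genes and the half-sites 1808, and 751 were common to both, which is 25.7% of the former and 41.5% of the latter. At these genes the low-level share was 5.24% of E-boxes (83 of 1585) and 25.7% of half-sites (362 of 1411), with an odds ratio of 0.128 at equal reads (0.0960 to 0.169, exact conditional test, adjusted p = 4.54e-63). With each gene as its own stratum the odds ratio was 0.162 (0.121 to 0.214, adjusted p = 8.58e-49, exact). Both tests were added later. The E-boxes were thus 20.4 points lower at the shared genes and 19.97 points lower over all sites. E-boxes at shared genes and other E-boxes were low-level at 5.24% and 5.56% (odds ratio 0.916, 0.687 to 1.22, p = 0.578, exact).

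Gene by gene the reads were few, with 20 or more on each side at only 23 of the 751 shared genes. The pooled level was higher in the IgG library at 281 shared genes, higher in the BMAL1-CLOCK library at 48 and equal at 422, of which 419 had no methylated read in either. By a two-sided Fisher's exact test over reads, 0 of 751 genes (0%) passed an adjusted p under 0.05. At an unadjusted p under 0.05 there were 6 (0.799%), 5 higher in IgG (0.666%) and 1 higher in the BMAL1-CLOCK library (0.133%). Those higher in IgG were SLITRK5, a neuronal membrane protein (2 of 9 reads against 0 of 83), BMP5, a growth factor (3 of 5 against 0 of 13), CACHD1 (3 of 4 against 0 of 9), WDR40B (3 of 7 against 0 of 12) and SLITRK1 (4 of 32 against 0 of 34). The gene in the other direction was LOC151760, with 4 of 13 reads methylated at its E-boxes, all in the site described above, and 0 of 18 at its half-sites.

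Among the 23 shared genes with 20 or more reads on each side, 18 were higher in IgG, 1 in the BMAL1-CLOCK library and 4 equal at 0, and the medians were 5.71% and 0%. PCDH9, a protocadherin, had 7 of 78 reads methylated at its half-sites and 3 of 102 at its E-boxes. SPRY2, an inhibitor of receptor tyrosine kinase signalling, had 5 of 58 and 1 of 70, and AK057471 5 of 107 and 0 of 84. All 3 were thus higher in the IgG library, and none passed the test. The gap was narrower at DSC3, a desmosomal cadherin, with 3 of 78 and 1 of 58, and at OR7E156P, an olfactory receptor pseudogene, with 5 of 72 and 3 of 74. Further among the 10 deepest shared genes, BC042366 had 5 of 119 and 0 of 56, ACTRT1 2 of 35 and 1 of 40, BC070396 4 of 35 and 1 of 52, and C1orf99 3 of 32 and 1 of 42. DKFZp564O1278, with 0 of 20 and 1 of 39, was the one gene of the 23 with the higher level at its E-boxes.

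Sites within 5 kb of the same gene's TSS on both sides were found at 7 genes, and most had no methylated read. At PRKACB, a catalytic subunit of protein kinase A, the E-box had 0 of 6 reads methylated and the half-site 0 of 4. At TRDMT1, a tRNA methyltransferase, the counts were 0 of 7 and 0 of 4, and at hTPK1, which makes thiamine pyrophosphate, 0 of 8 and 0 of 4. BC011779 (0 of 6 and 0 of 4) and MGC70870 (0 of 4 and 0 of 10 over 2 half-sites) were alike at 0. Methylated reads were seen at CR614646, with 0 of 4 at the E-box and 1 of 4 at the half-site. They were also seen at BC071797, with 1 of 24 over both strands of 1 E-box and 3 of 11 at the half-site.

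Sites that lie close together on the chromosome gave the same order. Within 1 kb of an IgG half-site there were 23 E-boxes, of which 1 (4.35%) had a methylated read, while 8 of the 23 half-sites beside them (34.8%) did. Within 10 kb the counts were 7 of 152 E-boxes (4.61%) and 44 of 140 half-sites (31.4%). The closest pair lay 140 bp apart at TRDMT1 and was unmethylated at both. The CHORDC1 E-box, 181 bp from a half-site, was the one with a methylated read, 1 of 4, where the half-site had 0 of 4.

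The order also held along the genome. On 16 chromosomes with 50 or more sites on each side, the share of sites with a methylated read was higher in the IgG library on all 16. It ran from 2.53% on chromosome 18 to 8.11% on chromosome 10 for the E-boxes, and from 19.3% on chromosome 11 to 35.3% on chromosome X for the half-sites, so the ranges did not overlap. By strand, 4.99% of the E-boxes on the plus and 5.89% on the minus strand were low-level (odds ratio 0.864, 0.657 to 1.14, p = 0.282, exact, added later). Only the IgG tables mark repeats, in lower case, and there the low-level share of the CpA half-sites was 28.6% inside and 25.1% outside repeats, both above every E-box share given for under 10 reads.

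An element read on both strands gives a pair of cytosines. Of 61 such E-boxes 2 had a methylated read on both strands, 6 on 1 strand and 53 on neither. The 2 were at TXNDC5 (chr6:7842582-7842587, 1 of 4 reads on each strand) and OR7E156P (chr13:63142631-63142636, 1 of 6 and 1 of 4). Of 28 half-sites read on both strands 15 had a methylated read on both, 8 on 1 and 5 on neither. These half-sites were deeper, and among the 15 with under 20 reads on each strand the counts were 5, 5 and 5.

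Clock genes were among the nearest genes of the E-boxes, and those named here had 1 site each with 0 of 4 methylated reads. They were CRY1, a repressor of BMAL1-CLOCK (15262 bp from the TSS), and the nuclear receptors RORA (5599 bp) and RORB (434444 bp), which act on the BMAL1 promoter. A count of 0 of 4 allows a level of up to 75%, which does not separate these sites from either library's level. In the IgG library 1 of 4 reads was methylated at a half-site near RORB and 1 of 5 at one near HLF, a clock-controlled transcription factor gene, while the half-sites near CRY1 and RORA had 0 of 4 each. A list of 20 E-box genes of the MYC, USF and TFE3 families was also searched, which includes factors such as MYC, USF1 and TFE3 themselves. None was the nearest gene of a site in either library. How often 20 other genes would have none was not tested.

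Of the 4 genes carried by the vectors, BMAL1 (ARNTL), CLOCK, GR (NR3C1) and DNMT3A, the E-box library had sites at NR3C1 alone, with 0 of 5 and 0 of 4 reads methylated. The IgG library had 14 of 379 and 26 of 477 at NR3C1 and 4 half-sites at DNMT3A, with 0 to 1 methylated reads of 10 to 13. The pooled IgG level was 7.39% without these genes and the mitochondrial sites.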

How the data were processed

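BisChIP-seq of HEK-293T cells was analysed for the BMAL1-CLOCK anti-Flag library and the GR IgG library. The authors aligned reads to hg18 with Bismark, counted overlapping mates once, dropped duplicates with SAMtools and required 4 reads per cytosine. No tool version is given in the sources used here. For each cytosine the deposited tables hold raw counts, methylated and total, with the nearest gene and the unsigned distance to its TSS, which the authors gave in bp. No site was repeated in these 3 tables. The half-site form is that of the table's name, since the sequence column reads alike in both: 4 half-sites matched a RefSeq promoter as named and 0 as the other strand.

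The level is methylated over all reads. Shares have exact Clopper-Pearson 95% intervals, and a count of 0 is given with the limit of 3 counts over its reads or sites and with the exact bound. Comparisons of shares used Fisher's exact test or, at equal reads (4, 5, 6, 7, 8 to 9, 10 to 19, 20 or more), by the exact conditional test of a common odds ratio, two-sided. Sites were treated as independent. Python 3.11.15, pandas 2.3.3, scipy 1.17.1 and R 4.3.3 were used, and the tests were tested on simulated data. The sites named were, for the E-boxes, the 10 with the most reads, all at 50% or above, the 10 nearest a TSS, and the low-level sites nearest a TSS or with the most reads. For the half-sites they were those with the most reads and the highly methylated ones with the most reads, and for shared genes those near in both and the 10 deepest. Others were chosen after their values were seen. The members, lists and tests were chosen with earlier results of these data known. Alternatives changed the background motif, minimum reads, thresholds and distances, and left out repeats, close neighbours, transfected genes and unplaced sequence. No hg18 genome or annotation was used, so exon and intron positions and flanking sequence were not analysed here. Some results for the clock genes are not reported here.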

Additional observations from a re-analysis of the deposited data

Results flagged for a closer look

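The IgG control of BMAL1-CLOCK, which entered no comparison, lists only 2 sites, and both were methylated in every read. They lie 5 bp apart at RMRP, the RNA component of the RNase MRP complex, on chromosome 9 (hg18). This is the spacing of the outer cytosines of a single E-box on opposite strands, so they are a single element at a single locus. The plus-strand cytosine at 35647911, 103 bp from the TSS, had 40 of 40 reads methylated (100%, exact 95% interval 91.2 to 100), and the minus-strand cytosine at 35647916, 98 bp from the TSS, had 124 of 124 (100%, 97.1 to 100). They drew attention as a signal outside the main measurement that is above the pooled levels of both libraries compared, in which single sites also reached 100%. Neither position had a site in the BMAL1-CLOCK anti-Flag table, so the E-box library gives no value to set beside them.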

How the results depend on the processing

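The 12 results were recomputed under 116 alternatives, of which 102 kept the direction and the side of the threshold, 7 kept the direction and lost the threshold, 5 turned and 2 moved a count. The low-level odds ratio at equal reads stayed between 0.132 and 0.243 and that for any methylated read between 0.123 and 0.222. With at least 8 reads, where fewer sites remained, the highly methylated odds ratio was 0 (p = 0.107, exact). There the low-level ratio within 5 kb turned to 1.29, although the shares were 25% of E-boxes and 77.3% of half-sites, and it rests on few sites. The share of sites within 5 kb turned to 31.8 points lower at the E-boxes, a difference of -31.8 points. Within 5 kb the ratio was 1.81 against the CpT half-sites alone. The difference in the share near a TSS was -2.25 points against IgG half-sites outside repeats (p = 0.0228, exact) and -0.499 points with 1 kb called near. The difference beyond 100 kb missed the threshold at -2.38 points against the CpA and -3.45 against the CpT half-sites, -2.06 with sites within 200 bp counted once, -2.31 with at least 8 reads, -3.29 outside repeats and -2.33 without the run near DQ583756; the cause was not tested. E-boxes above the IgG level numbered 2 against the CpT half-sites alone and 2 against those outside repeats. The alternatives on repeats could be applied to the IgG side only, and these and the one on DQ583756 were chosen after seeing the data. Counting repeated entries as deposited was not run, since none repeat. No paired analysis was possible because each group is 1 library and the labels give no replicate numbers, and for the same reason no replicate could be left out. Depth limits single sites: at 4 reads the lowest level above 0 is 25%.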

Other observations

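The IgG library also held 16 half-sites of the mitochondrial genome, which the E-box table does not list. Their reads were methylated at 6.32% (66 of 1045, exact 95% interval 4.92 to 7.97), against 7.39% (6.93 to 7.86) over the half-sites that are neither mitochondrial nor at a transfected gene. By form the mitochondrial level was 5.87% at 8 CpA half-sites and 6.53% at 8 CpT half-sites. The deepest mitochondrial half-sites had 13 of 243, 13 of 145, 8 of 107 and 10 of 106 reads methylated. The E-box level of 1.23% has no mitochondrial counterpart. How much of any of these levels is incomplete conversion was not tested.

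Outside the mitochondrial genome and the vectors, the deepest IgG half-sites lay near GUSBL2 on chromosome 6, with 4 of 101 methylated reads for the CpA and 6 of 99 for the CpT cytosine, and near FLJ43980 on chromosome 16, with 14 of 97 (14.4%, 8.12 to 23.03).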
